A study of Homo sapiens with 33 samples.

Results

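The Schlafen genes examined here are SLFN5, SLFN11, SLFN12, SLFN12L and SLFN13, taken by symbol as 5 of the 29744 genes in the expression tables. Their RNA was measured by mRNA sequencing in 11 cell lines of high-grade serous ovarian carcinoma, the most common epithelial ovarian cancer, with 3 replicate libraries per line. OVCAR3, OVCAR4, PEA1 and PEO1 are the 4 platinum-sensitive lines, and OVCAR3 ResA, OVCAR3 ResB, OVCAR4 ResA, OVCAR4 ResB, PEA2, PEO4 and PEO6 are the 7 platinum-resistant lines, by the study's text and not by the sample labels. The ResA and ResB lines were made independently from OVCAR3 or OVCAR4 by repeated short pulses of cisplatin at rising dose, and were not kept in the drug. PEA2 comes from the same patient as PEA1, and PEO4 and PEO6 from the same patient as PEO1, so these resistant lines were not made by drug selection in the study. No library was described as treated with platinum at harvest. Each resistant line is a single line. The study's text calls the OVCAR4 derivatives clones and refers to a clone of origin common to PEO4 and PEO6, and its methods name no single-cell cloning step. Nothing states that the replicates were separate cultures, so the p-values measure the spread between these libraries, which may be technical.

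Schlafen proteins share a core domain that cleaves RNA in several of them, and several are induced by interferon in many cell types. SLFN11 is recruited to stalled replication forks through the single-strand DNA binding protein RPA and blocks replication there, and it also cleaves tRNA after DNA damage. It is known for sensitising cancer cells to platinum and other drugs that damage DNA, and for being silenced in many cell lines, often with promoter methylation. SLFN13 is a close relative that cleaves tRNA and rRNA, SLFN5 is a nuclear member with a helicase-like domain that acts on transcription, and SLFN12 is an RNase activated by drugs that glue it to the phosphodiesterase PDE3A. SLFN12L is a little-studied relative of SLFN12.

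The members lie side by side on chromosome 17 (RefSeq GRCh38.p14), with SLFN5 at chr17:35243072-35273655, SLFN11 at chr17:35350305-35373621, SLFN12 at chr17:35410922-35433174, SLFN13 at chr17:35435096-35449766 and SLFN12L at chr17:35464254-35537678. Promoter windows of 300 bases were at hand for SLFN11, SLFN12 and SLFN12L. Those of SLFN11, which was near 0 in some lines, and of its neighbour SLFN12, which was detected in every library, are shown 5′ to 3′ on the minus strand. Each runs from 250 bases before the transcription start to 50 bases after its first base, at chr17:35373572-35373871 for SLFN11 and chr17:35433125-35433424 for SLFN12. Capitals mark matches, on either strand, to a gamma-activated sequence (TTCNNNGAA), an element of interferon-responsive promoters, or to an ETS core (CCGGAA).
SLFN11: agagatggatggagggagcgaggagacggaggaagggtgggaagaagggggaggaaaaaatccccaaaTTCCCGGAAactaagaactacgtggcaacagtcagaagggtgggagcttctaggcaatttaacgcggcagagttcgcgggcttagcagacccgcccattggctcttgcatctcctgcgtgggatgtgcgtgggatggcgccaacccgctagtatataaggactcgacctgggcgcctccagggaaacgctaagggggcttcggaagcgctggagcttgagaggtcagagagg
SLFN12: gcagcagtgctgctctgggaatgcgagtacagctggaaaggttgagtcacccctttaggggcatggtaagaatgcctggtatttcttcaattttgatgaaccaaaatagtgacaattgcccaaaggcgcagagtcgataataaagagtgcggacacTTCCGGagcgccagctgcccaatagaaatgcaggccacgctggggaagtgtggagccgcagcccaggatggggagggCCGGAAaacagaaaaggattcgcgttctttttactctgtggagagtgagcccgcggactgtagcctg
The SLFN11 window held 1 TTCNNNGAA, whose last 6 bases are also a CCGGAA, and the SLFN12 window held 2 CCGGAA. The core of the interferon-stimulated response element, searched for as GAAA, any 2 bases and GAAA again, was in neither. The SLFN12L window, not printed, held 1 such core and 2 TTCNNNGAA, of which 1 overlaps it. Of 35116 promoters of the same length, 3.57% held that core, 7.66% held TTCNNNGAA and 17.2% held CCGGAA. CpG dinucleotides, the sites of methylation, numbered 18 for SLFN11, 13 for SLFN12 and 2 for SLFN12L, against a median of 14 over all promoters. These matches are letters in a window and were not tested as sites.

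The libraries held 18058985 to 43394009 expected counts. No pair of replicates agreed within sampling noise, and 31 of the 33 libraries were nearest to another library of their own line. The exceptions were OVCAR4 ResA replicate 1 and OVCAR4 ResB replicate 1, which were nearest to each other. Both mitochondrial rRNA genes together took a share of the counts that ran from 1.12% to 14.8% and differed between replicates. Of 11 markers of ovarian carcinoma and Müllerian epithelium, the summed level was 2535 to 8160 TPM per library in 10 lines and 420 to 466 TPM in PEA1, where EPCAM, KRT7, KRT19 and CDH1 had means of 14.0, 2.95, 0.459 and 1.26 TPM while PAX8 was at 74.9 TPM. Blood cell markers were checked because blood cells are rich in Schlafen RNA. In every line 8 to 10 of these 11 markers stayed under 1 TPM in all libraries.

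SLFN11 and SLFN13 share sequence, and their reads were in part divided between them by the authors' quantification. The expected count was whole, within 0.02, in 7 of 33 libraries for SLFN11 and in 8 for SLFN13, but in 30 of 33 for their sum. The sum of both is therefore given beside each change of either.

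Levels differed between members and between lines, in TPM, a read count divided by transcript length and scaled to the same total in every library. SLFN5, SLFN12 and SLFN13 were detected in all 33 libraries, SLFN11 was over 3 counts in 26 and SLFN12L in 10. The summed level of the 5 genes was highest in PEA2, at 132 ± 14.3 TPM (SD, n = 3), and PEA1, at 116 ± 35.4 TPM, and lowest in OVCAR3 ResA, at 22.6 ± 7.42 TPM. SLFN5 made up the largest share in the OVCAR3 lines and in the PEA lines, with 75.7% of the Schlafen sum in PEA2. SLFN13 led in the OVCAR4 lines, PEO4 and PEO6. PEO1 was the only line of the 11 in which SLFN11 led, with 39.4% of the sum.

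**Figure D1:**
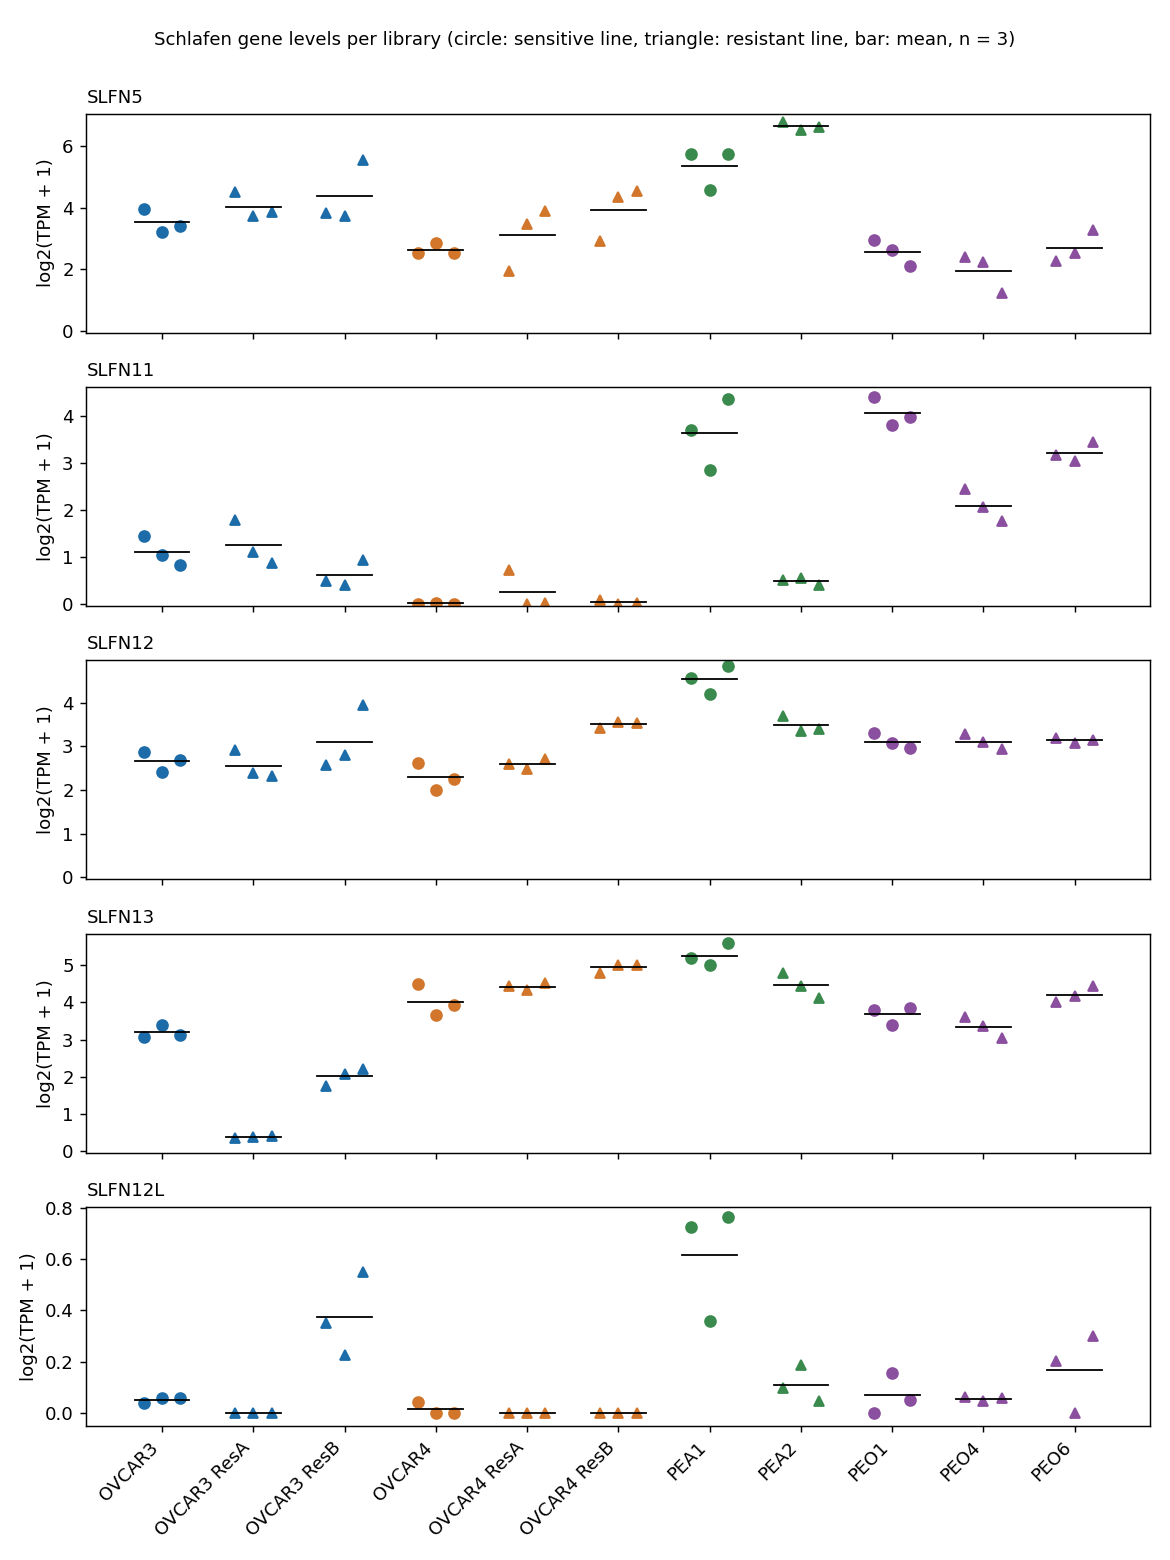
Level of each Schlafen gene, as log2(TPM + 1) on the vertical axis, in each of the 33 libraries by line (circles sensitive, triangles resistant, bars the mean of 3). SLFN11 is near 0 in the OVCAR4 lines and PEA2, and SLFN13 is near 0 in OVCAR3 ResA, while SLFN12 stays between 2.98 and 27.6 TPM in every library.

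SLFN11 was highest in PEO1, at 16.0 ± 3.68 TPM (SD, n = 3). It followed at 12.6 ± 6.71 in PEA1, 8.38 ± 1.38 in PEO6, 3.34 ± 1.05 in PEO4, 1.47 ± 0.862 in OVCAR3 ResA, 1.18 ± 0.480 in OVCAR3, 0.538 ± 0.318 in OVCAR3 ResB and 0.403 ± 0.0755 TPM in PEA2. In the OVCAR4 family the mean was 0.221 ± 0.372 TPM in OVCAR4 ResA, 0.0203 ± 0.0258 in OVCAR4 ResB and 0.00485 ± 0.00840 in OVCAR4. Of neighbours in this order, the libraries of PEO6 and PEO4 were the only ones that did not overlap. Only 16 of 33 libraries reached 1 TPM. The platinum-sensitive lines therefore stood at both ends of the SLFN11 order, with PEO1 and PEA1 at the top and OVCAR4 at the bottom.

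SLFN13 ran from 38.0 ± 8.33 TPM (SD, n = 3) in PEA1 to 0.291 ± 0.0146 TPM in OVCAR3 ResA. The order between them was OVCAR4 ResB (29.8 ± 2.50), PEA2 (21.4 ± 5.22), OVCAR4 ResA (20.5 ± 1.45), PEO6 (17.6 ± 2.80), OVCAR4 (15.7 ± 5.06), PEO1 (11.9 ± 2.15), PEO4 (9.28 ± 1.94), OVCAR3 (8.18 ± 1.07) and OVCAR3 ResB (3.06 ± 0.623 TPM). The libraries of OVCAR3, OVCAR3 ResB and OVCAR3 ResA stood apart from each other at the low end, and those of OVCAR4 ResB stood apart from those of PEA2.

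SLFN5 averaged 99.9 ± 8.63 TPM in PEA2 and 42.7 ± 17.0 in PEA1. It followed at 23.9 ± 19.4 in OVCAR3 ResB, 16.2 ± 8.45 in OVCAR4 ResB and 15.9 ± 5.22 in OVCAR3 ResA, and then at 10.8 ± 3.25 in OVCAR3, 8.95 ± 5.61 in OVCAR4 ResA, 5.73 ± 2.58 in PEO6, 5.25 ± 0.820 in OVCAR4, 5.06 ± 1.66 in PEO1 and 3.10 ± 1.55 TPM in PEO4. Below PEA2 every line overlapped with the next lower line. SLFN12 had line means from 3.96 ± 1.08 TPM in OVCAR4 to 22.7 ± 5.03 TPM in PEA1, a 5.72-fold range. SLFN12L reached 1 TPM in no library, and its highest line mean was 0.544 ± 0.229 TPM in PEA1.

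The genes whose line means followed each member most closely were named by Pearson's r of log2(TPM + 1) over the 11 lines, among 16914 genes. They were PRKAA1 for SLFN5 (0.958), PRKD1 for SLFN11 (0.951), PLD2 for SLFN12 (0.976) and COPZ1 for SLFN13 (0.963). Among the members, the closest pair was SLFN12 with SLFN12L (0.786). SLFN11 had r of -0.19 with SLFN5 and 0.12 with SLFN13. The 11 points share families of origin, so these values are descriptions.

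The resistant lines were then compared with the sensitive line of their family, to ask which Schlafen genes differ with platinum resistance. A gene was called at a Benjamini-Hochberg adjusted p under 0.05 in DESeq2, over all genes tested, with 6 libraries per comparison. Of 35 combinations of member and pair, 8 were called lower in the resistant line and 3 higher, 17 were not called and 7 had no adjusted p. Over all genes and the same 7 pairs 29.8% of combinations with an adjusted p were called, 15.0% higher and 14.8% lower. SLFN11 was lower in 3 pairs and higher in none, SLFN13 lower in 3 and higher in 1, SLFN5 higher in 2 and lower in 1, and SLFN12 lower in 1. Comparisons within the OVCAR3, OVCAR4 and PEO families share their sensitive libraries. In these bulk RNA samples, fewer cells that express a gene and less RNA per cell cannot be told apart.

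**Figure D2:**
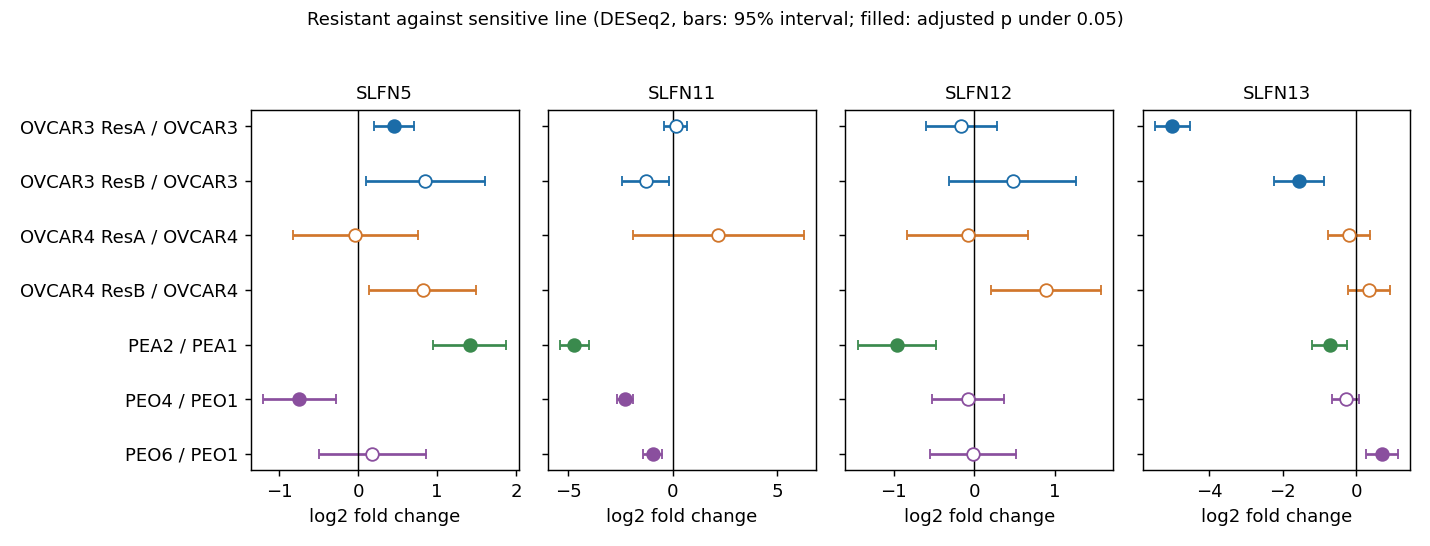
log2 fold change of the resistant over the sensitive line (horizontal axis, different range per gene) for SLFN5, SLFN11, SLFN12 and SLFN13 in the 7 pairs, with 95% intervals, filled where the adjusted p is under 0.05. SLFN11 is called lower in PEA2, PEO4 and PEO6, and SLFN13 is called lower in both OVCAR3 derivatives and PEA2 and higher in PEO6.

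In PEA2 against PEA1, SLFN11 showed its largest fall. It measured 12.1, 6.17 and 19.6 TPM in the replicates of PEA1 and 0.418, 0.470 and 0.321 TPM in those of PEA2. Every PEA2 library was far below every PEA1 library. The log2 fold change was -4.69 ± 0.35 (SE, n = 3 per line), a 25.8-fold fall (DESeq2 adjusted p = 6.09e-40). The sum of SLFN11 and SLFN13 fell from 50.6 ± 15.0 to 21.8 ± 5.26 TPM.

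The neighbours of SLFN11 moved less in this pair, and SLFN5 moved the other way. SLFN5 had 52.2, 23.0 and 52.9 TPM in PEA1 and 109, 92.0 and 98.6 TPM in PEA2, without overlap, and rose by 1.41 ± 0.24 (adjusted p = 1.70e-08). SLFN12 had 22.9, 17.5 and 27.6 TPM in PEA1 and 12.1, 9.16 and 9.62 TPM in PEA2, and fell by 0.97 ± 0.25 on the log2 scale (DESeq2 adjusted p = 3.67e-04). SLFN13 had 35.5, 31.1 and 47.2 TPM in PEA1 and 26.8, 20.9 and 16.5 TPM in PEA2, and fell by 0.72 ± 0.25 on the log2 scale (adjusted p = 0.00958). SLFN12L was at 9.12 to 21.1 expected counts in PEA1 and 1 to 5.10 in PEA2 and was not called (log2 fold change -2.66 ± 1.19, adjusted p = 0.0519), while edgeR gave an adjusted p of 0.0279.

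Of the 5 members, 3 were thus called lower and 1 higher in PEA2, in a pair in which 47.0% of 17204 tested genes were called, 23.8% lower and 23.3% higher. All 5 members had libraries that did not overlap in TPM, as did 58.5% of tested genes. The call of SLFN12 was lost without replicate 1 of both lines (adjusted p = 0.0517), and that of SLFN13 without replicate 1 (0.053) or replicate 3 (0.0758). Of the 11 epithelial markers, 8 were higher and 1 lower in PEA2. Of the 11 blood cell markers 4 were tested and 3 were higher. PTPRC, the pan-leukocyte marker CD45, was at 0 in PEA1 and 3.30 TPM in PEA2, CD14 rose by 3.24 ± 0.58, CD68 rose from 18.7 to 49.9 TPM, and the T cell markers CD3D and CD3E were at 0 in both lines. The blood cell markers summed to 10.7 to 23.8 TPM in PEA1 and 55.2 to 57.7 TPM in PEA2. The fibroblast and endothelium markers summed to 69.7 to 116 TPM in PEA1, led by COL1A1 at 88.4 TPM with 8 of 10 markers under 1 TPM, against 6.37 to 9.93 TPM in PEA2. Of 7 of these tested 3 were lower and 2 higher, both endothelial, with CDH5 at 0 in PEA1 and 7.02 TPM in PEA2 and PECAM1 up by 3.07 ± 1.02. The part of the 3 marker lists in the Schlafen changes was not tested.

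In PEO4 against PEO1, SLFN11 measured 20.1, 13.1 and 14.9 TPM in PEO1 and 4.47, 3.17 and 2.39 TPM in PEO4. The lines did not overlap. SLFN11 fell by 2.26 ± 0.19 on the log2 scale, 4.80-fold (DESeq2 adjusted p = 1.49e-30), and its sum with SLFN13 fell from 27.9 ± 5.27 to 12.6 ± 2.98 TPM. SLFN5 was at 6.68, 5.13 and 3.36 TPM in PEO1 and 4.26, 3.70 and 1.35 TPM in PEO4, which overlap. It was called lower with the replicate block (-0.75 ± 0.24, adjusted p = 0.00637) but not without it (adjusted p = 0.116), nor without replicate 1 (0.141) or replicate 2 (0.135). SLFN12 (-0.08 ± 0.23, adjusted p = 0.85) and SLFN13 (-0.28 ± 0.19, adjusted p = 0.272) were not called. The 2 members called lower stood against 33.3% of 17467 tested genes called, 16.7% lower and 16.6% higher.

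PEO6, from the same patient, kept more SLFN11 RNA. Its libraries had 7.99, 7.24 and 9.90 TPM, all below those of PEO1, and SLFN11 fell by 0.95 ± 0.23 on the log2 scale, 1.93-fold (DESeq2 adjusted p = 2.70e-04). SLFN13 rose instead, from 12.9, 9.43 and 13.4 TPM in PEO1 to 15.1, 17.1 and 20.7 TPM in PEO6, by 0.70 ± 0.22 (adjusted p = 0.00592). The sum of both genes was 26.0 ± 3.99 TPM in PEO6 and 27.9 ± 5.27 TPM in PEO1, within the spread of the replicates. The SLFN11 call was lost under 3 of 12 alternatives, among them all 33 libraries in one fit (adjusted p = 0.312). The SLFN13 call was lost under 5 of 12, among them the fit without replicate 2 (0.159). SLFN5 (0.18 ± 0.35, adjusted p = 0.716) and SLFN12 (-0.02 ± 0.27, adjusted p = 0.973) were not called. Of 16803 genes tested 41.4% were called, 21.2% higher and 20.3% lower.

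The lines of this patient also differed from each other. SLFN11 was higher in PEO6 than in PEO4 by 1.31 ± 0.33 on the log2 scale (adjusted p = 8.49e-04), and SLFN13 by 0.99 ± 0.29 (adjusted p = 0.00669). The sum was 26.0 ± 3.99 against 12.6 ± 2.98 TPM. These 2 members were called among 18.2% of 16728 tested genes, with 9.86% higher and 8.33% lower. Without replicate 2 neither was called (0.108 for SLFN11 and 0.348 for SLFN13), and without replicate 1 SLFN13 was not (0.0868). SLFN5 was not called, at 0.91 ± 0.43 (adjusted p = 0.132).

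SLFN11 was lower in all 3 patient-derived resistant lines, PEA2, PEO4 and PEO6, as were 483 of 15682 genes tested in all 3, or 3.08%. Among the 7 pairs, 3.68% of 19798 genes were called lower in at least 3 and higher in none, which SLFN11 also was. SLFN5 and SLFN13 were called in both directions in different pairs, as were 31.1% of genes.

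In the OVCAR3 family SLFN13 was the member that changed most. It measured 7.46, 9.41 and 7.69 TPM in OVCAR3, 0.282, 0.284 and 0.308 TPM in OVCAR3 ResA and 2.37, 3.24 and 3.58 TPM in OVCAR3 ResB. The 3 lines did not overlap. SLFN13 fell 31.9-fold in OVCAR3 ResA (log2 fold change -4.99 ± 0.24, DESeq2 adjusted p = 2.03e-90) and 2.94-fold in OVCAR3 ResB (-1.55 ± 0.35, adjusted p = 2.62e-04). Between the derivatives SLFN13 was higher in OVCAR3 ResB by 3.43 ± 0.47, 10.8-fold (adjusted p = 2.52e-11). The sum with SLFN11 was 9.36 ± 1.02 TPM in OVCAR3, 1.77 ± 0.852 in OVCAR3 ResA and 3.60 ± 0.863 TPM in OVCAR3 ResB. The OVCAR3 ResB call was lost without replicate 1 (adjusted p = 0.0539) or replicate 2 (0.0914) of both lines.

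SLFN11 in this family did not pass the test. It had 1.70, 1.06 and 0.765 TPM in OVCAR3 and 2.45, 1.15 and 0.822 TPM in OVCAR3 ResA, which overlap (0.15 ± 0.28, adjusted p = 0.707). OVCAR3 ResB had 0.388, 0.324 and 0.903 TPM, with replicate 3 inside the range of OVCAR3 and the others below it (-1.28 ± 0.57, adjusted p = 0.197). Without OVCAR3 ResB replicate 3 the log2 fold change was -1.82 and the adjusted p 0.0351. Against OVCAR3 ResA the value was -1.41 ± 0.58 (adjusted p = 0.0856), and -2.02 without that library (0.00805).

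SLFN5 was at 14.4, 8.23 and 9.71 TPM in OVCAR3, 21.9, 12.4 and 13.4 TPM in OVCAR3 ResA and 13.2, 12.3 and 46.3 TPM in OVCAR3 ResB. All 3 lines overlap, with OVCAR3 ResB replicate 3 far above the others. SLFN5 was called higher in OVCAR3 ResA (0.45 ± 0.13, adjusted p = 0.00134), where same-numbered replicates deviated together, but not without the replicate block (adjusted p = 0.214) or without replicate 1 (0.119). SLFN12 was not called in OVCAR3 ResA (-0.16 ± 0.22, adjusted p = 0.604) or OVCAR3 ResB (0.48 ± 0.40, adjusted p = 0.671). SLFN12L had 1 to 1.01 expected counts in the OVCAR3 libraries, 0 in each of OVCAR3 ResA and 4 to 12 in OVCAR3 ResB. With OVCAR3 set to the floor of 3 counts per library it was at least 2.36-fold higher in OVCAR3 ResB, with no adjusted p.

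In OVCAR3 ResA 2 members were called, 1 in each direction, where 44.9% of 18160 genes were, 22.0% higher and 22.9% lower. In OVCAR3 ResB 1 member was called lower, where 7.67% of 16352 genes were called, 4.10% higher and 3.57% lower. Between OVCAR3 ResB and OVCAR3 ResA 1 member was called higher, with 13.5% of 16301 genes called, 7.47% higher and 6.04% lower. OVCAR3 ResB replicate 3 also had the lowest mitochondrial rRNA share of its line, 1.12% against 5.97% and 8.88%.

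In the OVCAR4 family SLFN11 was almost absent. OVCAR4 had 0 to 1.03 expected counts per library and OVCAR4 ResB 0 to 3.12. OVCAR4 ResA had 53.5, 0 and 1.03 expected counts (0.651, 0 and 0.0127 TPM), so that 1 library carried nearly all of its signal. OVCAR4 ResA was at least 4.80-fold above the floor of 3 counts per library on average, was not called (adjusted p = 0.577), and rests on that library. In OVCAR4 ResA replicate 1, 30 genes had at least 50 counts while the other 8 libraries of the family had at most 3 after rounding to whole counts, SLFN11 among them. Such genes numbered 0 to 3 in each of those 8 libraries. How these counts arose was not tested.

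The other members in this family were readily detected. SLFN13 had 21.4, 11.6 and 14.2 TPM in OVCAR4, 20.6, 19.0 and 21.9 TPM in OVCAR4 ResA and 26.9, 31.3 and 31.2 TPM in OVCAR4 ResB. SLFN12 had 5.11, 2.98 and 3.80 TPM in OVCAR4, 5.10, 4.58 and 5.60 TPM in OVCAR4 ResA and 9.79, 10.8 and 10.6 TPM in OVCAR4 ResB. SLFN5 had 4.76, 6.19 and 4.78 TPM in OVCAR4, 2.84, 10.1 and 13.9 TPM in OVCAR4 ResA and 6.54, 19.6 and 22.3 TPM in OVCAR4 ResB. For these 3 members the OVCAR4 ResB libraries lay above all of those of OVCAR4, and 42.0% of tested genes had libraries that did not overlap in this pair.

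No member was called against OVCAR4 in either derivative by DESeq2, where 11.9% of 14993 genes in OVCAR4 ResA and 17.9% of 15968 genes in OVCAR4 ResB were. The sum of SLFN11 and SLFN13 was 15.7 ± 5.05 TPM in OVCAR4, 20.7 ± 1.53 in OVCAR4 ResA and 29.8 ± 2.47 in OVCAR4 ResB. In OVCAR4 ResB the log2 fold changes were 0.89 ± 0.35 for SLFN12 (adjusted p = 0.057), 0.81 ± 0.35 for SLFN5 (adjusted p = 0.0851) and 0.35 ± 0.30 for SLFN13 (adjusted p = 0.474). SLFN12 was called without the replicate block (adjusted p = 0.00106), and without OVCAR4 ResB replicate 1 both SLFN12 (0.0186) and SLFN5 (1.54e-04) were. The TPM scale itself shifts in this family, where the median log2 difference in TPM over expressed genes was 0.48 in OVCAR4 ResB and 0.44 in OVCAR4 ResA, against -0.03 in counts for both. PEA2 had such a shift of -0.10, OVCAR3 ResB of 0.12 and OVCAR3 ResA of 0.14.

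OVCAR4 ResB differed from OVCAR4 ResA in 3 members, in a pair whose replicate numbers deviated together. SLFN12 was higher by 0.98 ± 0.20 (adjusted p = 5.04e-06), SLFN5 by 0.84 ± 0.18 (adjusted p = 2.78e-05) and SLFN13 by 0.54 ± 0.10 (DESeq2 adjusted p = 1.37e-06), beside a sum of SLFN11 and SLFN13 of 29.8 against 20.7 TPM. Of 15911 genes 32.8% were called, 16.2% higher and 16.5% lower. Without the block only SLFN12 was called (adjusted p = 0.511 for SLFN5 and 0.104 for SLFN13), and without replicate 2 neither SLFN12 (0.0688) nor SLFN13 (0.0845) was.

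The resistant lines were also set against the sensitive lines on the summed counts of each line, with a family term, so that the line was the unit. No member was called by DESeq2, and none had an unadjusted p under 0.05. By this measure 0.286% of 23782 genes were called. The log2 difference of SLFN11 was -0.91 ± 0.94, with a 95% interval of -2.75 to 0.93. It moved to -0.08 without the PEA family and to -1.93 without the OVCAR4 family. SLFN13 had -0.81 ± 0.64 (interval -2.06 to 0.44), or -0.09 without the OVCAR3 family. SLFN5 had 0.60 ± 0.35 (interval -0.09 to 1.28) and SLFN12 -0.03 ± 0.33 (interval -0.68 to 0.62).

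Whether a member's resistant-sensitive difference was the same in all 7 pairs was tested with a likelihood ratio test in DESeq2 on all 33 libraries. All 5 members were called, with adjusted p of 3.17e-83 for SLFN13, 2.12e-12 for SLFN12, 7.89e-11 for SLFN11, 0.00612 for SLFN12L and 0.0214 for SLFN5. The share of 18973 genes called was 70.2%. The call of SLFN5 was lost in edgeR (adjusted p = 0.054) and without replicate 2 (0.391) or replicate 3 (0.0636), and that of SLFN12L without replicate 1 (0.452) or replicate 3 (0.467).

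SLFN5 varied between replicates of a line together with the mitochondrial rRNA share. The library with the lowest share had the highest SLFN5 level in 8 of the 11 lines. In OVCAR4 ResB, SLFN5 was at 6.54 TPM where the share was 13.1%, and at 19.6 and 22.3 TPM where it was 2.47% and 2.39%. Over the 33 libraries, deviations from the line mean of SLFN5 and of the share had r = -0.87, against -0.70 for SLFN12, -0.35 for SLFN11 and a median of -0.49 over 15836 genes. Of these genes 14.0% had a lower r than SLFN5. With the log2 share as a term in place of the replicate block, a fit chosen after seeing the data, SLFN5 remained higher in PEA2 (0.83, adjusted p = 1.91e-04) and was no longer called in OVCAR3 ResA (adjusted p = 0.133) or PEO4, where its sign turned (0.12, adjusted p = 0.822). In that fit SLFN11 remained lower in PEA2 (-5.51, adjusted p = 2.16e-64) and was not called in PEO6 (-0.68, adjusted p = 0.132).

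**Figure D3:**
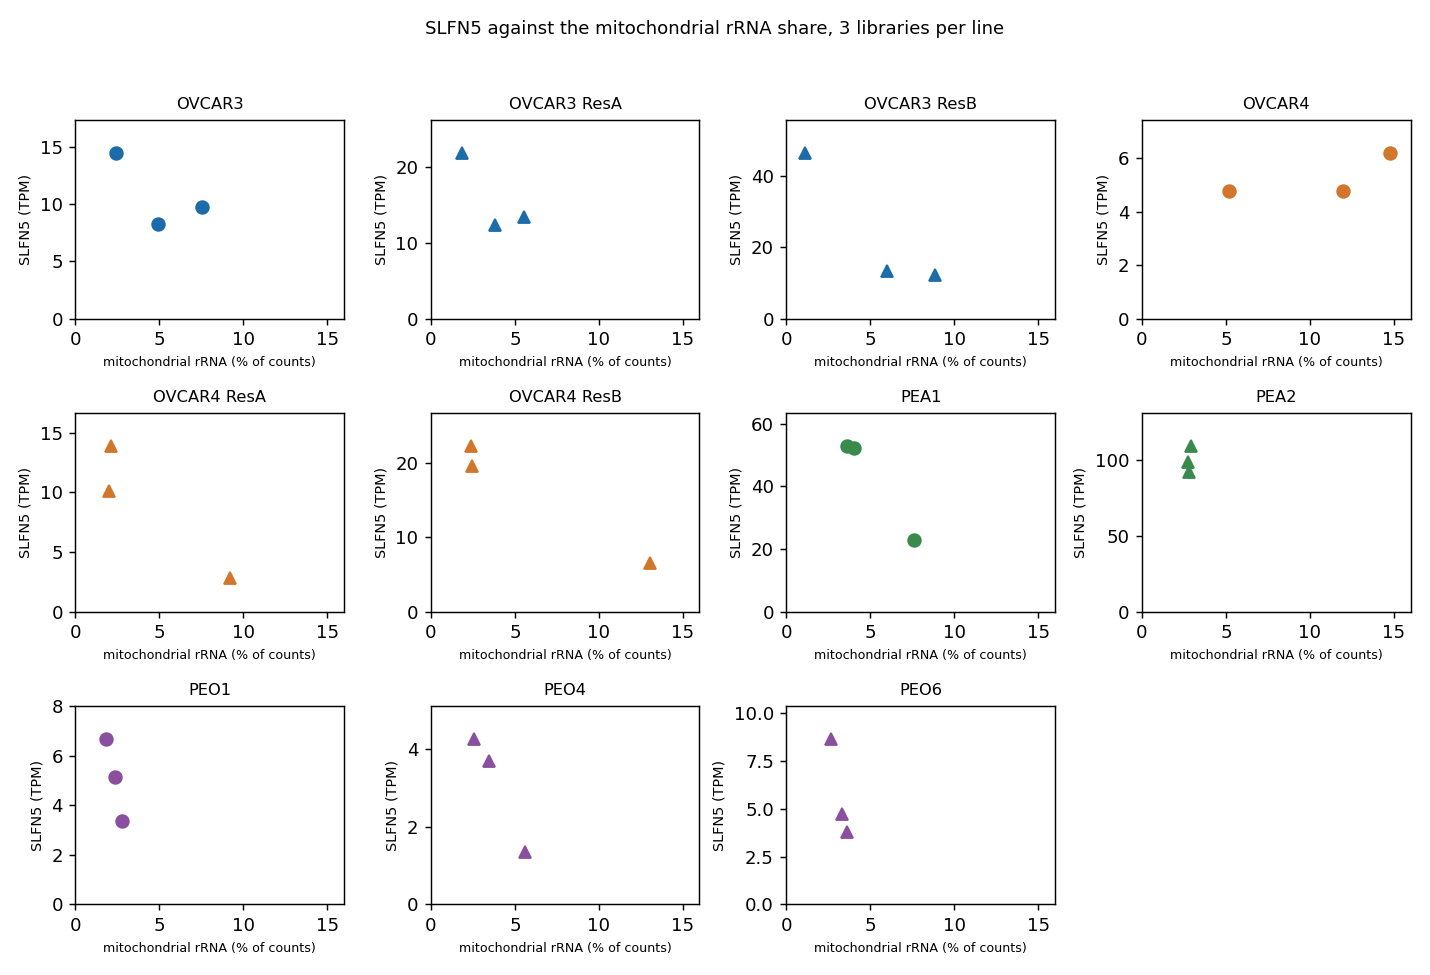
SLFN5 level in TPM (vertical axis, own range per line, from 0) against the share of counts on mitochondrial rRNA in percent (horizontal axis) for the 3 libraries of each line. In 8 of the 11 lines the library with the lowest share has the highest SLFN5; OVCAR4 ResA and OVCAR4 ResB each have 1 library at a high share and low SLFN5.

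Genes of the interferon pathway, which can induce Schlafen genes, were described as a group. Of 17 interferon-stimulated genes, all 17 rose in PEO4 (median log2 fold change 3.89) and all 17 rose in PEO6 (3.78), against medians of 0.006 and 0.023 over all genes tested. MX1, an antiviral GTPase, rose from 3.39 to 330 TPM in PEO4 (6.63 ± 0.18), and IFI44L rose by 7.02 ± 0.28 in PEO6. SLFN11 was lower and SLFN12 was not called in both of these lines. In PEA2 15 of the 17 fell and 1, MX2, rose (median -1.98, against -0.02 over all genes), and OAS2, which makes the activator of RNase L, fell by 3.59 ± 0.27 on the log2 scale. SLFN11 was called lower in PEO4 and PEO6, where these genes rose, and in PEA2, where 15 of the 17 fell. PEO4 and PEO6 were compared with the same PEO1 libraries. A part of interferon in the SLFN11 level was not tested.

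**Figure D4:**
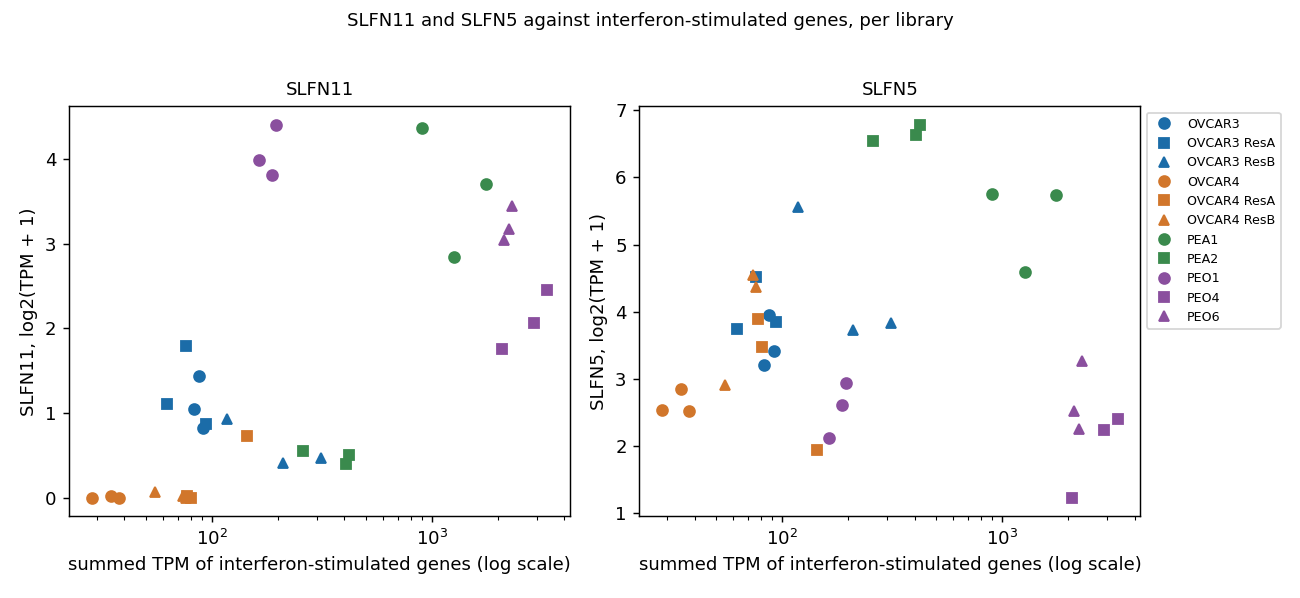
Level of SLFN11 (left) and SLFN5 (right), as log2(TPM + 1), against the summed TPM of 17 interferon-stimulated genes on a log axis, 1 point per library with colours for families and shapes for lines. PEO4 and PEO6 lie to the right of PEO1 with lower SLFN11, and PEA2 lies to the left of PEA1 with lower SLFN11 and higher SLFN5.

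The summed level of the 17 genes was 163 to 196 TPM in PEO1, 2079 to 3353 TPM in PEO4, 2119 to 2306 TPM in PEO6, 902 to 1753 TPM in PEA1 and 260 to 422 TPM in PEA2. Over the 11 line means its r was 0.64 with SLFN11, 0.57 with SLFN12, 0.49 with SLFN12L, 0.23 with SLFN13 and -0.01 with SLFN5. Over deviations of the 33 libraries from their line means, r was -0.04 with SLFN11, -0.33 with SLFN12, -0.25 with SLFN12L, -0.08 with SLFN13 and -0.22 with SLFN5. The derivatives made with cisplatin had changes in both directions. In OVCAR3 ResA 4 of the 17 rose and 7 fell, and OAS1 fell by 4.71 ± 0.44 on the log2 scale beside the fall of SLFN13. In OVCAR3 ResB 6 of 16 rose and 1 fell, in OVCAR4 ResA 7 of 17 rose and 1 fell, and in OVCAR4 ResB 4 of 15 rose and 3 fell. Of all genes, 44.9% were called in OVCAR3 ResA, 7.67% in OVCAR3 ResB, 11.9% in OVCAR4 ResA and 17.9% in OVCAR4 ResB. These shares were 33.3% in PEO4, 41.4% in PEO6 and 47.0% in PEA2.

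Of 10 genes of interferon signalling, at most 7 were called in any pair. In PEO4 6 rose and 1 fell, among them the negative regulator USP18 (1.78 ± 0.19). In PEO6 6 rose and 1 fell, led by the transcription factor IRF9 (2.42 ± 0.24), while the kinase JAK1 fell by 1.10 ± 0.21 on the log2 scale. In PEA2 none rose and 3 fell, and of these USP18 fell by 1.46 ± 0.31 and the receptor chain IFNAR2 fell by 1.08 ± 0.25. In OVCAR3 ResA 2 rose and 3 fell, and JAK1 fell by 1.28 ± 0.10. In OVCAR4 ResB 1 rose, STAT2 (1.25 ± 0.33), and in OVCAR3 ResB and OVCAR4 ResA none was called. The called totals were 7 of 10 in PEO4 and in PEO6, 5 of 10 in OVCAR3 ResA and 3 of 10 in PEA2. Of all genes 33.3%, 41.4%, 44.9% and 47.0% were called in those pairs, in that order. In OVCAR4 ResB, OVCAR3 ResB and OVCAR4 ResA the shares were 17.9%, 7.67% and 11.9%.

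Replication stress factors with which SLFN11 acts were called in 4 of the 7 pairs. Of 16 such genes, 2 rose and 3 fell in PEA2, where the checkpoint mediator CLSPN fell by 1.41 ± 0.27 and CDC45, part of the replicative helicase, rose by 1.13 ± 0.23. In PEO4 2 rose and 1 fell, with CLSPN up by 1.33 ± 0.18 and the helicase subunit MCM3 by 1.05 ± 0.17. In PEO6 none rose and 7 fell, led by DTL, which fell by 1.05 ± 0.23, and RPA1, a subunit of RPA, which fell by 0.86 ± 0.23. In OVCAR3 ResA 1 rose and 5 fell, and in the other 3 pairs none was called. The called totals of 5, 3, 7 and 6 of 16 in PEA2, PEO4, PEO6 and OVCAR3 ResA were near or under the 47.0%, 33.3%, 41.4% and 44.9% of all genes called there. Medians over the list were within 0.16 of 0 except in PEO6, at -0.44.

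Among 10 chromatin regulators and transcription factors linked to SLFN11 expression, the ETS factor FLI1 rose in PEA2 from 0.468 to 24.1 TPM (5.88 ± 0.30), in the pair with the largest fall of SLFN11. FLI1 was also called higher in OVCAR3 ResA, where SLFN11 was not called, from 0 in every OVCAR3 library to 0.114 TPM (DESeq2 adjusted p = 0.0247). In OVCAR4 ResB FLI1 rose from 0.0101 to 0.745 TPM (DESeq2 adjusted p = 9.68e-05). SLFN11 was at the floor in both lines of that pair, at 0 to 1.03 expected counts in OVCAR4 and 0 to 3.12 in OVCAR4 ResB. It had no adjusted p there, so that pair gives no measured SLFN11 change in either direction. A part of FLI1 in the SLFN11 level was not tested. DNMT3B, a DNA methyltransferase, rose by 1.08 ± 0.23 in PEA2, where the list had 3 higher and 3 lower. In PEO4 2 rose and 1 fell, led by the deacetylase HDAC1 (1.14 ± 0.17). In PEO6 1 rose and 6 of 9 tested fell, led by ETS1, which fell by 2.42 ± 0.23, and the maintenance methyltransferase DNMT1, which fell by 1.44 ± 0.25. In OVCAR3 ResA 4 rose and 2 fell, and HDAC1 fell by 1.23 ± 0.11. ETS1 rose by 2.43 ± 0.36 in OVCAR3 ResB, the only gene of the list called there, as FLI1 was in OVCAR4 ResB, and none was called in OVCAR4 ResA. The called members of the list, 6 of 10 in PEA2, 3 of 9 in PEO4, 7 of 9 in PEO6 and 6 of 10 in OVCAR3 ResA, stood against the 47.0%, 33.3%, 41.4% and 44.9% of all genes called in those pairs. The RNA level of these genes does not measure methylation of the SLFN11 promoter shown above.

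The phosphodiesterases PDE3A and PDE3B, partners of SLFN12, were low. PDE3A was at most 1.56 TPM on average and PDE3B at most 2.95 TPM in the lines compared. PDE3B fell from 2.95 to 0.127 TPM in PEA2 (-4.36 ± 0.42), in the pair in which SLFN12 fell. In PEO6, where SLFN12 was not called, PDE3A rose by 4.45 ± 0.52. The remaining relatives SLFN14 and SLFNL1 together reached at most 0.248 TPM in any library. At these levels SLFN14 had no adjusted p in any pair. SLFNL1 had one only in PEA2 (DESeq2 adjusted p = 0.972) and PEO6 (0.157), and was not called.

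The genes around the cluster were described for the same pairs. Of 20 neighbours, 10 on each side, 12 were tested in PEA2, where the DNA ligase LIG3 rose (1.01 ± 0.31) while the chemokine CCL5 fell by 7.35 ± 0.65 and RASL10B fell by 6.65 ± 0.53 on the log2 scale. In PEO4, of 14 tested, CCL5 rose by 9.71 ± 1.05 and TMEM132E by 6.03 ± 0.40, and RFFL fell by 0.58 ± 0.22. In PEO6 2 of 14 rose, CCL5 by 7.33 ± 0.77 and GAS2L2 by 3.52 ± 1.02, and 3 fell. In OVCAR3 ResA, where SLFN13 fell 31.9-fold, 3 of 12 rose and 1 fell, with none moving by more than RFFL (0.74 ± 0.17). In OVCAR3 ResB, OVCAR4 ResA and OVCAR4 ResB none was called. Called totals were 3 of 12 in PEA2, 3 of 14 in PEO4, 5 of 14 in PEO6 and 4 of 12 in OVCAR3 ResA. These were under the 47.0%, 33.3%, 41.4% and 44.9% of all genes called in those pairs. In the pairs with none called, the shares of all genes were 7.67%, 11.9% and 17.9%.

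**Figure D5:**
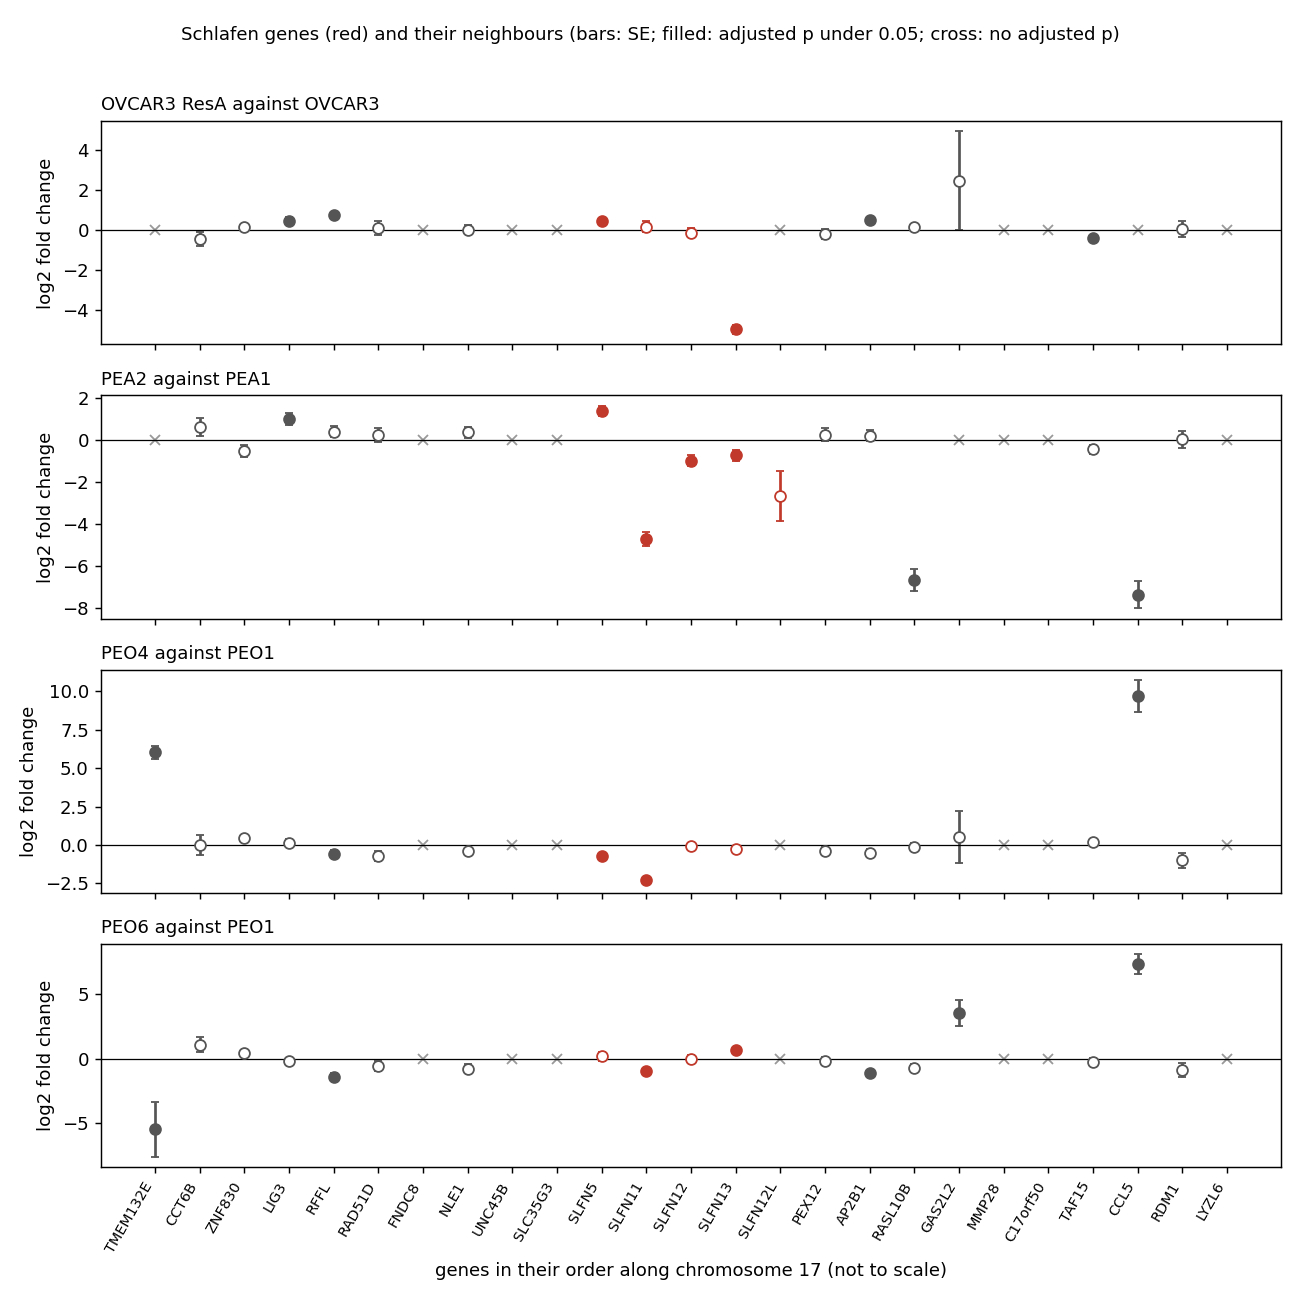
log2 fold change with SE (vertical axis) of the Schlafen genes, in red, and 20 neighbours in their order along chromosome 17, not to scale, in 4 pairs, with filled points called and crosses at 0 for genes without an adjusted p. SLFN13 is the lowest point in OVCAR3 ResA, SLFN11 is the lowest Schlafen gene in PEA2, PEO4 and PEO6, and CCL5 falls in PEA2 and rises in PEO4 and PEO6.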

How the data were processed

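mRNA libraries (KAPA mRNA HyperPrep) of 11 lines were sequenced by the authors on a NextSeq 1000, the same pool over several runs, and processed with nf-core/rnaseq and salmon on GRCh38. The deposited tables hold expected counts, estimated per gene and not normalised (88.4% whole), and TPM, set by the authors to a fixed sum per library after division by length. The study's text describes the lines of its larger panel as prepared and sequenced in 1 batch. It makes no such statement where it introduces the RNA sequencing of the resistant and sensitive pairs. Strand use is not given in the sources used here. Expected counts were rounded. Each pair was tested in R 4.3.3 with the DESeq2 1.42.0 Wald test on its 6 libraries, with the replicate number as a block as in the study's methods, over all genes of the table. edgeR 4.0.16, limma 3.58.1 on log2(TPM + 1) or log2(TPM + 0.1), TMM scaling, a filter of 10 counts in 3 libraries, other sets of libraries and a fit without the block were alternatives. Tests were checked for recovery and direction of added changes on simulated counts, with a fixed spread and no replicate effect. That check does not measure how often false calls arise in these libraries. Tables were made in Python 3.11.15.

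Same-numbered replicates deviated together (every r over 0.1) in OVCAR3 ResA against OVCAR3 (0.816, 0.347 and 0.680) and OVCAR4 ResB against OVCAR4 ResA (0.837, 0.744 and 0.712), from the data and not from the labels. The text names all members and, of each list, the called genes with the 2 largest changes, some genes less changed being named for their role after their values were seen. The members and lists were chosen with earlier results of these data known. Positions and promoters are from RefSeq GRCh38.p14, where 3 of the 5 members had a promoter. Intervals cover 95%. A floor of 3 counts covers counting error only.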

Additional observations from a re-analysis of the deposited data

Results flagged for a closer look

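Resistant lines of one origin differed from each other by a direct test (DESeq2, adjusted over all genes). SLFN13 was higher in OVCAR3 ResB than in OVCAR3 ResA by 3.43 on the log2 scale (2.37 to 3.58 TPM against 0.282 to 0.308, in 3 of 3 libraries each). SLFN5, SLFN12 and SLFN13 were higher in OVCAR4 ResB than in OVCAR4 ResA by 0.84, 0.98 and 0.54, with overlap of the libraries for SLFN5. SLFN11 and SLFN13 were higher in PEO6 than in PEO4 by 1.31 and 0.99, without overlap. The OVCAR3 derivatives share a sensitive line of origin, as do the OVCAR4 derivatives. PEO4 and PEO6 come from the same patient as PEO1, the sensitive line both were compared with. Each difference is thus one between their own resistant-sensitive changes.

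The resistant-sensitive difference of all 5 members varied over the 7 pairs by the likelihood ratio test, with adjusted p of 0.0214 for SLFN5, 7.89e-11 for SLFN11, 2.12e-12 for SLFN12, 0.00612 for SLFN12L and 3.17e-83 for SLFN13. Of all genes tested 70.2% passed the same test.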

How the results depend on the processing

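Of 50 values of 1 member in 1 comparison with an adjusted p, 22 were called. Over 571 recomputed values, 457 kept direction and side of the threshold, 55 lost the call, 27 gained it and 32 changed sign. Of those 32, 1 had been called (SLFN5 in PEO4) and 0 were called after. The called values that held under every alternative were 4, SLFN13 in OVCAR3 ResA and the differences between pairs of SLFN11, SLFN12 and SLFN13. SLFN11 in PEA2 and PEO4 lost its call under 1 of 12 alternatives each, limma without a filter. SLFN12L and, in the OVCAR4 lines, SLFN11 had few counts. Lost calls were not traced to a cause.

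The replicate block followed the study, though same-numbered libraries deviated together in only 2 comparisons. Without the block (no pairing), the members called were 1 in OVCAR3 ResA (2 with it), 1 in OVCAR4 ResB (0), 1 in PEO4 (2), 3 in OVCAR3 ResB against ResA (1) and 1 in OVCAR4 ResB against ResA (3), and SLFN5 in OVCAR4 ResA was 0.13. Leaving out the block moved no other count of members. In the order given, 30.1%, 28.5%, 32.9%, 18.1% and 12.9% of all genes were called without it.

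With all 33 libraries in one fit 1 member was called in OVCAR3 ResA, 2 in OVCAR3 ResB, 1 in OVCAR4 ResA, 1 in OVCAR4 ResB, 1 in PEO4, 1 in PEO6, 3 in OVCAR3 ResB against ResA and 1 in PEO6 against PEO4, and SLFN5 in OVCAR4 ResA was 0.11. In the same order 26.7%, 17%, 26%, 30.9%, 27%, 40.4%, 28% and 26.4% of all genes were called in that fit. limma at either pseudocount called 0 in OVCAR3 ResB, 1 in PEO6 and 0 in PEO6 against PEO4, and without a filter 0 in these and in PEA2, PEO4, OVCAR3 ResB against ResA and OVCAR4 ResB against ResA. In OVCAR4 ResA limma turned the sign of SLFN5 (0.47, or 0.50 with a pseudocount of 0.1), SLFN12 (0.32, 0.38) and SLFN13 (0.40, 0.42), and that of SLFN12 in PEO4 (0.00039, 0.00042) and PEO6 (0.029, 0.033), none of them called. With the mitochondrial rRNA share as a term, chosen after seeing the data, the counts were 1 in OVCAR3 ResA, 3 in OVCAR3 ResB, 1 in OVCAR4 ResA, 1 in OVCAR4 ResB, 1 in PEO4, 0 in PEO6 and 4 in OVCAR3 ResB against ResA. Of all genes 43%, 19.4%, 29.9%, 39.8%, 32.1%, 20.4% and 31.1% were called with that term, in the same order. SLFN11 in OVCAR3 ResA was then -0.14, SLFN5 in PEO4 0.12 and SLFN12 0.11 in PEO4 and 0.066 in PEO6.

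Leaving out 1 replicate at a time gave 1 to 2 called members in OVCAR3 ResA, 0 to 2 in OVCAR3 ResB, 0 to 2 in OVCAR4 ResB, 2 to 4 in PEA2, 1 to 2 in PEO4, 1 to 2 in PEO6, 1 to 2 in OVCAR3 ResB against ResA, 1 to 3 in OVCAR4 ResB against ResA, 0 to 2 in PEO6 against PEO4 and 3 to 4 in the difference between pairs. The log2 fold change then ran from -0.019 to 0.26 for SLFN11 and -0.29 to 0.0080 for SLFN12 in OVCAR3 ResA, -0.45 to 0.35 for SLFN5 in OVCAR4 ResA, -0.15 to 0.016 for SLFN12 in PEO4, -0.39 to 0.53 for SLFN5 and -0.11 to 0.081 for SLFN12 in PEO6, and -0.069 to 0.86 for SLFN5 in OVCAR3 ResB against ResA. Between resistant and sensitive lines SLFN12 was 0.20 without the PEA family and SLFN12L 0.14 without the OVCAR4 family.

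Counts of all genes called moved too, from 8146 to between 3183 and 9839 in OVCAR3 ResA, 1255 to 0 and 3407 in OVCAR3 ResB, 1784 to 14 and 6289 in OVCAR4 ResA, 2853 to 22 and 7340 in OVCAR4 ResB, 8088 to 2037 and 9174 in PEA2, 5820 to 557 and 6388 in PEO4, 6962 to 519 and 7607 in PEO6, 2202 to 0 and 5581 in OVCAR3 ResB against ResA, 5218 to 429 and 6119 in OVCAR4 ResB against ResA, 3043 to 21 and 5915 in PEO6 against PEO4, and 68 to 0 and 199 between resistant and sensitive lines. The lowest count was that of limma without a filter in the 10 comparisons of 2 lines, and that of edgeR between resistant and sensitive lines, where 925 genes had an unadjusted p under 0.05.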
